A study of Homo sapiens with 18 samples.

Results

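CYP1A1 transcripts were followed in 22RV1 cells, an established human prostate cancer line, given the compound UT-143 or its solvent. The identifiers of 6 CYP1A1 transcripts were looked up by their number before the version suffix among the 35246 transcript rows of the deposited RNA-seq table, and 5 of the 6 were listed; ENST00000395049 was not. The transcripts were chosen because CYP1A1 rows showed the largest rises after UT-143, so their difference between treatments is given as a description, and the calls of a fit over the whole table are printed beside it only as background, not as a test of these transcripts. The pairing of these identifiers with CYP1A1 came with the member list, as the table itself gives no gene names.

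All 6 libraries came from 22RV1 cells grown in RPMI with 10% FBS. The vehicle group was 3 libraries from cells given DMSO, and the UT-143 group was 3 libraries from cells given 10 µM UT-143, harvested after 20 to 24 hours. Numbers in the sample titles distinguish the libraries of a group, but nothing states that they were separate cultures, so their spread may be technical. The series also holds 12 open chromatin (ATAC-seq) samples of 22RV1 and of another prostate cancer line, LNCaP, which are not used here. The study as titled concerns inhibitors of androgen receptor splice variants, and the comparison here asks how the CYP1A1 transcripts differ after the compound.

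CYP1A1 encodes a cytochrome P450 monooxygenase of the endoplasmic reticulum that oxidises polycyclic aromatic hydrocarbons and other planar compounds. Its gene is the classical target of the aryl hydrocarbon receptor, a ligand-activated transcription factor held in the cytoplasm with HSP90 until a ligand binds. The receptor then enters the nucleus, pairs with ARNT and binds xenobiotic response elements, whose core is GCGTG. In most cells without such a ligand the CYP1A1 mRNA is scarce.

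The gene lies on chromosome 15 from 74719542 to 74725528 (GRCh38.p14, RefSeq), on the minus strand, and RefSeq lists 3 transcripts for it. Its promoter is shown because all listed transcripts were higher after UT-143 and a match to the receptor's core element falls within it. Whether that match takes part in the rise was not tested. The window is chr15:74725479-74725778 on the minus strand of GRCh38.p14, 300 bases in the RefSeq promoter table, from 250 before to 50 after the gene's start, printed 5′ to 3′ along the gene with the GCGTG core and the TATAAA box in capitals.
CYP1A1 promoter: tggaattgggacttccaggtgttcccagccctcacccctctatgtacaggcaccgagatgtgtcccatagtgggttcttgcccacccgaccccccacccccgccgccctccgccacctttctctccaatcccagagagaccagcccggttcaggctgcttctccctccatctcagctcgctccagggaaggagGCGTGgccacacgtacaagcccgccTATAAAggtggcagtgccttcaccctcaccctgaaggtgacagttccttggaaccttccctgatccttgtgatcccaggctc

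On searching both strands, 1 GCGTG was found, starting 57 bases before the start site and reading along the gene. GCGTG occurs in 36.5% of the 35116 promoters of the table, so its presence here is common. The longer form TNGCGTG, which contains GCGTG, occurs in 5.51% of the promoters and was not found in this window. TATAAA, the sequence around which the basal transcription machinery assembles, starts 32 bases before the start site and occurs in 11.5% of promoters. GGGCGG, the GC box read by Sp family factors, was found once on the opposite strand, 148 bases before the start site, and occurs in 45.0% of promoters. CANNTG, the E box, was found once, 235 bases before the start site, and occurs in 68.7%. None of these matches overlapped another. They describe the sequence only, and no measurement of binding or of open chromatin at this window was analysed here. Sequence further upstream was not searched, so elements lying there would be missed. The absence of TNGCGTG holds for this window only, and control of the gene by the receptor was not tested.

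Every listed CYP1A1 transcript was near the lowest value of the table in vehicle cells and was higher in all UT-143 libraries. Values are CPM, reads per transcript brought to the same total in each library, which the authors deposited as whole numbers. ENST00000379727.8 was at 2, 2 and 1 CPM in vehicle replicates 1, 2 and 3 and at 27, 19 and 11 CPM in UT-143 replicates 1, 2 and 3. The groups did not overlap, with every UT-143 value above every vehicle value, as in 13.1% of all rows. The lowest UT-143 value was 5.5 times the highest vehicle value. The mean was 19.0 ± 8.0 CPM after UT-143, 11.4 times the 1.67 ± 0.58 CPM of the vehicle libraries (SD, n = 3 each). ENST00000395048.6 had exactly the same value as ENST00000379727.8 in each of the 6 libraries, so the pair gives 1 measurement and not separate evidence.

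The remaining transcripts had the same order of libraries after UT-143, with values lower than or equal to those of ENST00000379727.8. ENST00000612821.4 was at 2, 1 and 1 CPM in vehicle replicates 1 to 3 and at 24, 17 and 11 CPM in UT-143 replicates 1 to 3. ENST00000617691.4 was at 2, 1 and 1 CPM in vehicle and at 23, 17 and 10 CPM after UT-143. Both were again without overlap between the groups, and the lowest UT-143 value was 5.5 and 5 times the highest vehicle value. The mean of ENST00000617691.4 was 1.33 ± 0.58 CPM in vehicle and 16.7 ± 6.5 CPM after UT-143 (SD, n = 3 each), a ratio of 12.5, and the ratio of ENST00000612821.4 was 13.

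ENST00000567032.5 was the lowest of the listed transcripts, at 1 CPM in each vehicle library and at 16, 12 and 5 CPM in UT-143 replicates 1, 2 and 3. Its mean after UT-143 was 11.0 ± 5.6 CPM (SD, n = 3), 11 times the vehicle value. Here too the groups were separate, with UT-143 replicate 3 at 5 times the vehicle libraries. The authors' deposited table holds the same ratios of means for all 5 rows, from 11 to 13.

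**Figure D1:**
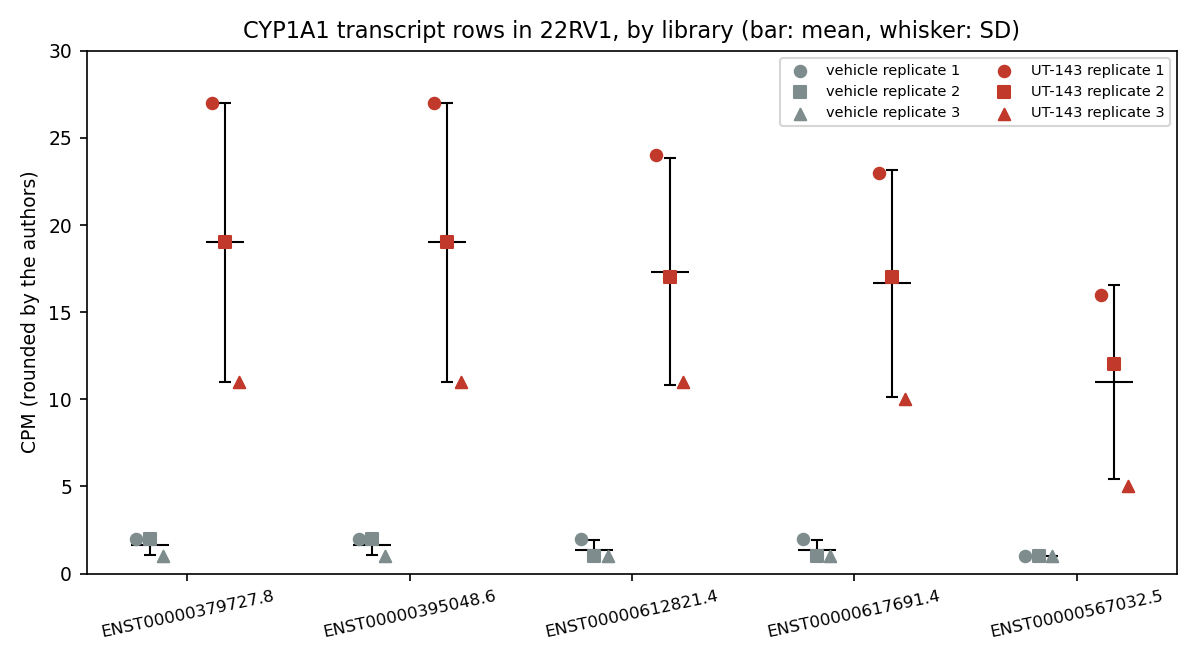
Deposited CPM (vertical axis, linear) of the 5 listed CYP1A1 transcript rows (horizontal axis) in each library, grey for vehicle and red for UT-143, with marker shape for the replicate number, a bar for the group mean and whiskers for the SD (n = 3). Vehicle values are 1 or 2 CPM throughout, and UT-143 values run from 5 to 27 CPM with replicate 1 highest and replicate 3 lowest in every row.

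On the log2(CPM + 1) scale, the changes of these rows were 2.85 with a standard error of 0.34 for ENST00000379727.8 and ENST00000395048.6, 2.94 (0.31) for ENST00000612821.4, 2.88 (0.32) for ENST00000617691.4 and 2.46 (0.38) for ENST00000567032.5, from a limma fit over all rows. The median over the 5 rows was 2.85, beside -0.058 over all 35246 rows. In that fit, 456 rows were higher after UT-143 at a Benjamini-Hochberg adjusted p under 0.05, which is 1.29% of those tested, and all 5 CYP1A1 rows were among them. Every UT-143 value lay above every vehicle value in 13.1% of all rows and in all 5 CYP1A1 rows. Because the rows were picked on this difference, nothing is read from these counts or from the median. When any 1 vehicle library, UT-143 replicate 1 or UT-143 replicate 2 was left out, limma called 0 rows of the whole table, these 5 included, and 5080 to 9271 rows had an unadjusted p under 0.05. With the replicate number as a block limma also called 0 rows, with 7941 at an unadjusted p under 0.05. Without UT-143 replicate 3 it called 8206 of the 35246 rows, higher and lower together, these 5 included. The rate of false calls in that run is unknown.

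The precision of the ratios was limited by how low the vehicle values were. Rounding to whole numbers can move each value by up to 0.5 CPM, which allows ratios of 8.54 to 16.7 for ENST00000379727.8 and of 7 to 23 for ENST00000567032.5. Leaving out any 1 library gave ratios of 9 to 13.8 for ENST00000379727.8, of 10.5 to 17.3 for ENST00000612821.4, of 10.1 to 16.7 for ENST00000617691.4 and of 8.5 to 14 for ENST00000567032.5. For the mean of the 5 rows, which was 1.40 ± 0.40 CPM in vehicle and 16.6 ± 6.9 CPM after UT-143 (SD, n = 3 each), the log2 change was 2.81 with a pseudocount of 1.

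**Figure D2:**
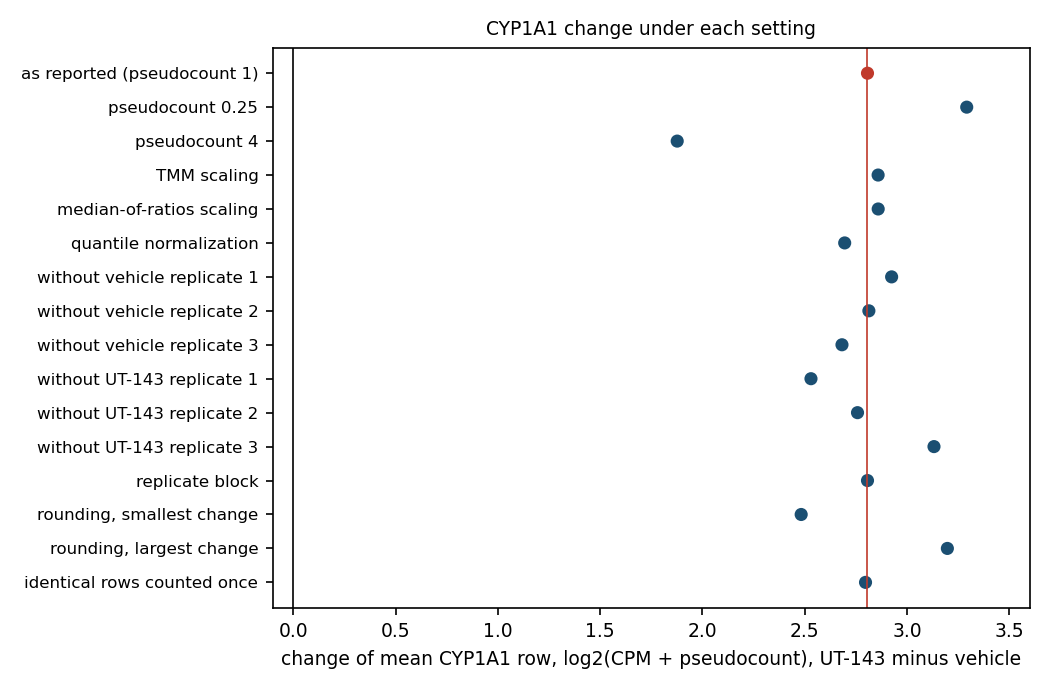
Change of the mean CYP1A1 row between UT-143 and vehicle (horizontal axis, difference in log2 of CPM plus the pseudocount) under each setting (vertical axis), with the reported value in red and a black line at 0. The points run from 1.88 with a pseudocount of 4 to 3.29 with a pseudocount of 0.25, and all lie above 0.

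No row of the table sums to less than 30 CPM over the 6 libraries, and the CYP1A1 rows were listed only because of their UT-143 values. Their vehicle values summed to 5 CPM for ENST00000379727.8 and ENST00000395048.6, to 4 CPM for ENST00000612821.4 and ENST00000617691.4 and to 3 CPM for ENST00000567032.5. A row with such vehicle values appears in the table only if its UT-143 mean is at least 5, 6.5 or 9 times its vehicle mean, respectively. The observed ratios of 11.4, 13, 12.5 and 11 lie above those minimums, by little for ENST00000567032.5. ENST00000395049, the transcript not listed, has no value here.

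In vehicle the CYP1A1 rows were at or next to the lowest value listed, 1 CPM. The minimum sum of 30 CPM and the choice of the rows fix this place: a row this low in vehicle is listed only if it is far higher after UT-143, so nothing is read from the counts that follow. In vehicle replicate 3, 5 rows were at 1 CPM or less and all 5 were CYP1A1 rows, while of the 14 rows at 2 CPM or less there 5 were. In vehicle replicate 2, 3 rows were that low and all 3 were CYP1A1 rows, and the 1 such row in vehicle replicate 1 was ENST00000567032.5. Of the 6 rows with a vehicle mean of at most 2 CPM, 5 were CYP1A1 rows. After UT-143 their place differed between transcripts and libraries. At or below the value of ENST00000379727.8 were 79.3% of all rows in UT-143 replicate 1, 68.7% in replicate 2 and 50.1% in replicate 3. For ENST00000567032.5, the lowest of the transcripts, these shares were 61.6%, 49.9% and 18.9%. CPM is not corrected for transcript length, so these shares place a row in the list and do not compare amounts between genes.

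The ratio of group means was at least 10 in 5 rows of the table, all of them CYP1A1 rows. It was at least 5 in 6 rows and at least 3 in 21 rows, and its median over all rows was 0.966. Among the 1303 other rows with a vehicle mean of at most 5 CPM, which the listing minimum also touches, the median ratio was 1.33. The largest ratio outside CYP1A1 was 5.38. As the CYP1A1 rows were chosen for the largest rises, their rank by ratio was fixed in advance and nothing is read from it.

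**Figure D3:**
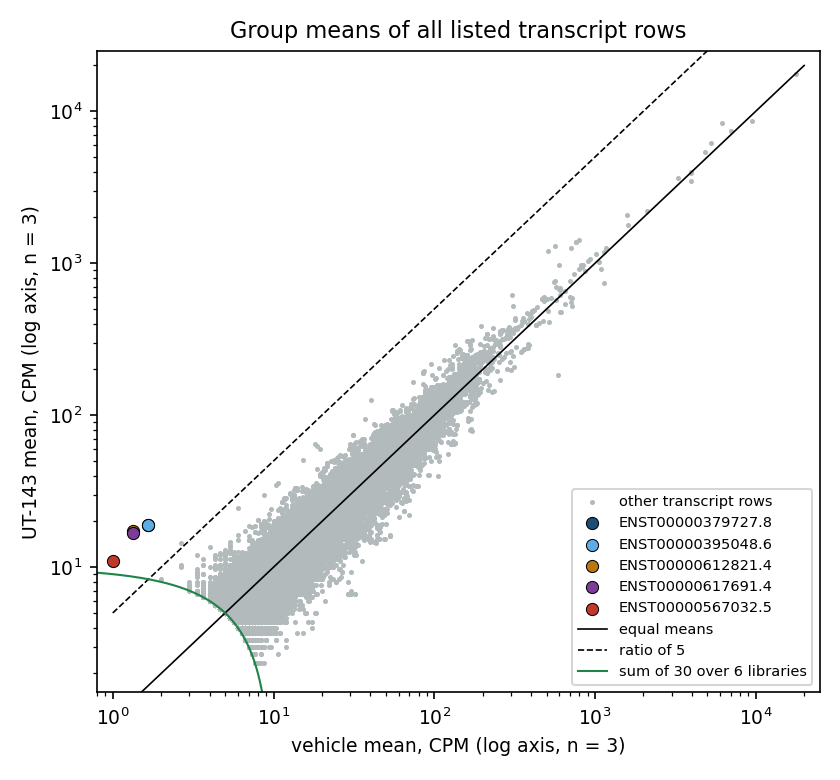
UT-143 mean against vehicle mean in CPM (both axes logarithmic, n = 3 per group) for all 35246 rows in grey and the 5 CYP1A1 rows in colour, with lines for equal means, for a ratio of 5 and for the sum of 30 CPM that the table's rows reach. The CYP1A1 points lie at the far left, at vehicle means of 1 to 1.67 CPM and UT-143 means of 11 to 19 CPM, above the line for a ratio of 5. ENST00000379727.8 and ENST00000395048.6 coincide.

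The UT-143 libraries differed from each other in how much CYP1A1 RNA they held. The choice of rows did not use this measure, but the rows were listed only because of their UT-143 values. Relative to the vehicle mean, ENST00000379727.8 was 16.2 times as high in UT-143 replicate 1, 11.4 times in replicate 2 and 6.6 times in replicate 3. For ENST00000567032.5 these values were 16, 12 and 5. The coefficient of variation (SD as a percentage of the mean) over the UT-143 libraries was 37.5% to 50.6% across the CYP1A1 rows. Among the 10905 other rows with a UT-143 mean of 10 to 20 CPM its median was 17.6%, and between 2.89% and 10.6% of those rows varied as much as a CYP1A1 row or more. That range was set after seeing the CYP1A1 values. No other row of the table had a ratio of means above 5.38, so the compared rows do not show how rows rising this far vary. Shares of these rows, here and below, are descriptions and not tests.

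UT-143 replicates 1 and 2 were alike in most rows and differed in CYP1A1. On the log2(CPM + 1) scale, replicate 2 was lower than replicate 1 by 0.49 for ENST00000379727.8 and ENST00000395048.6, and the differences were -0.47 for ENST00000612821.4, -0.42 for ENST00000617691.4 and -0.39 for ENST00000567032.5. In the other rows of like UT-143 mean, the same difference had a median of 0 and an SD of 0.12. Of those 10905 rows, 6 (0.0550%) were as low as ENST00000379727.8 or lower and 21 (0.193%) as low as ENST00000567032.5 or lower. These shares give a place among rows that mostly did not rise, and are not a test. The CYP1A1 rows may share reads, so their agreement with each other does not count as repeated evidence. Because each of these UT-143 libraries is a single sample, whether the difference would recur was not tested.

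UT-143 replicate 3, which stood apart from the other 5 libraries over the whole table, was also the lowest for CYP1A1. It differed from the mean of replicates 1 and 2 by -0.98 for ENST00000379727.8, by -0.82 for ENST00000612821.4, by -0.92 for ENST00000617691.4 and by -1.31 for ENST00000567032.5 on the log2(CPM + 1) scale. The other rows of like UT-143 mean spread widely in this library, with a median of -0.13 and an SD of 0.59, and 6.88% of them were as low as ENST00000379727.8 or lower. For ENST00000567032.5 the share was 2.73%. In this library 6674 rows were at 5 CPM or less, against 2505 and 2868 in UT-143 replicates 1 and 2, and ENST00000567032.5 was 1 of them. Without replicate 3 the ratio of means was 13.8 for ENST00000379727.8, 15.4 for ENST00000612821.4, 15 for ENST00000617691.4 and 14 for ENST00000567032.5. The part of the library's overall shift in these values was not tested.

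**Figure D4:**
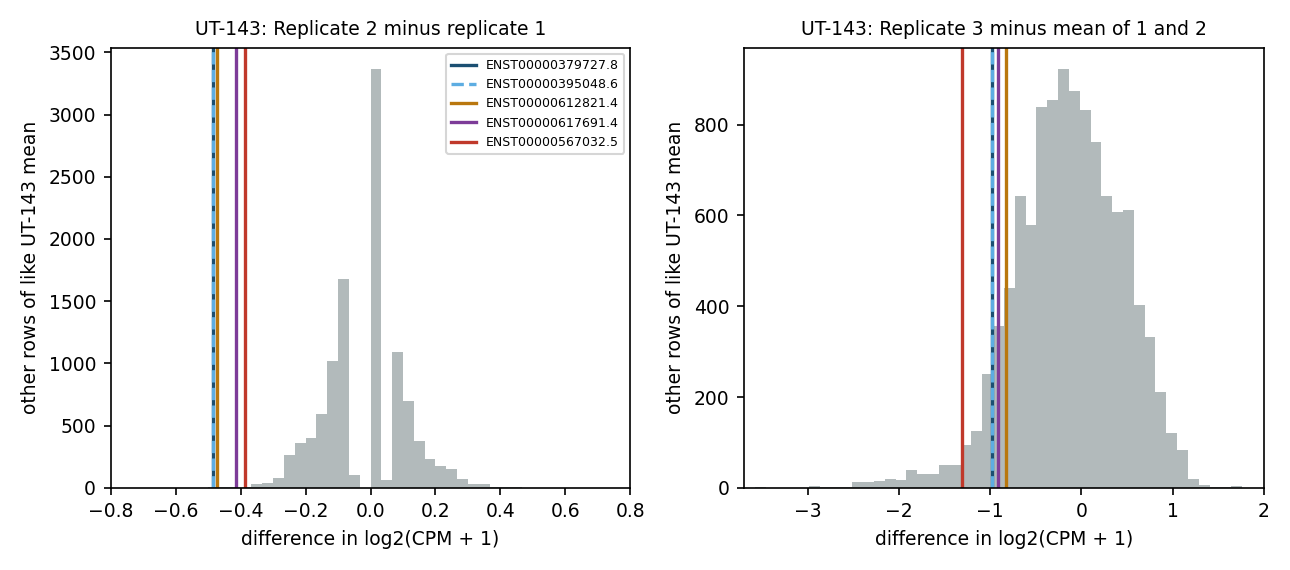
Differences in log2(CPM + 1) between UT-143 libraries (horizontal axes) for the 10905 other rows with a UT-143 mean of 10 to 20 CPM (grey histograms, number of rows on the vertical axes), with a coloured line for each CYP1A1 row. For replicate 2 minus replicate 1 (left) the lines lie between -0.49 and -0.39, at the edge of the histogram, and for replicate 3 minus the mean of replicates 1 and 2 (right) they lie between -1.31 and -0.82, within its lower part.

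Among themselves, the CYP1A1 rows kept nearly constant proportions after UT-143, except for ENST00000567032.5 in replicate 3. The rows may share reads, so their near constant proportions are not read as a result about separate transcripts. The value of ENST00000617691.4 was 85.2%, 89.5% and 90.9% of that of ENST00000379727.8 in UT-143 replicates 1, 2 and 3. For ENST00000612821.4 the shares were 88.9% and 89.5% in replicates 1 and 2, and in replicate 3 the values were equal at 11 CPM. ENST00000567032.5 was at 59.3% and 63.2% of ENST00000379727.8 in UT-143 replicates 1 and 2 and at 45.5% in replicate 3. Rounding alone allows 56.4% to 62.3%, 59.0% to 67.6% and 39.1% to 52.4% for those shares, so the drop of the share in replicate 3 was more than rounding alone can give. Counting error could not be added, as the depth in reads is unknown. The share in replicate 3 rests on a value of 5 CPM. In that library the other rows of like UT-143 mean spread widely, with an SD of 0.59 on the log2(CPM + 1) scale. The drop is therefore not read as a change of this transcript. In vehicle, with values of 1 or 2 CPM, rounding allows a share as low as 20.0% for that transcript in replicates 1 and 2 and as high as equality, and no proportion between transcripts could be read.

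The rows whose pattern came closest to CYP1A1 had smaller ratios of means. Likeness was the Euclidean distance over the 6 libraries between each row's log2(CPM + 1), less its vehicle mean, and the mean of the CYP1A1 rows, where a smaller value means more alike. The CYP1A1 rows themselves lay at 0.27 to 0.72, around a centre that is their own mean. The distance includes the rise for which they were chosen, so nothing is read from their gap to other rows. The nearest other row, ENST00000369582.6, lay at 1.76. It was at 3, 3 and 2 CPM in vehicle replicates 1 to 3 and at 12, 14 and 17 CPM in UT-143 replicates 1 to 3, a ratio of 5.38, and there UT-143 replicate 3 was the highest library and not the lowest. The next, ENST00000252809.3, lay at 1.86, with 20, 17 and 17 CPM in vehicle and 76, 63 and 54 CPM after UT-143, a ratio of 3.57. In that row UT-143 replicate 1 was the highest and replicate 3 the lowest, as in CYP1A1. Neither row is paired with a gene in the tables used here.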

How the data were processed

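RNA-seq values of 6 22RV1 libraries were used. Per the submitters' processing notes, FastQC, STAR 2.7.10a, HOMER and build hg38 were named for the series. The counting per transcript, the handling of shared reads and any use of strand were not given in the sources used here. The deposited values are named CPM and are whole numbers, so each value was taken as a score, a CPM that the authors rounded, and no count model was fitted. They sum to 889253 to 923170 per library, and the depth in reads is unknown. The deposited table also gives the authors' ratio of means and an unadjusted p-value, which was not used.

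The description label of each sample names its column, and 0 columns of per-sample values stayed without a sample. The gene name tables matched 0 of the 35246 transcript identifiers, so lists of receptor partners, other receptor targets and cell type markers were not run. The CYP1A1 promoter was matched by symbol (1 of 1).

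Values were analysed as log2(CPM + 1) with limma 3.58.1 in R 4.3.3 (group as the only term, mean-variance trend, Benjamini-Hochberg adjustment over all rows, threshold 0.05), a fit tested on simulated data. In the simulation, false calls stayed within the threshold where 1 UT-143 library had the added spread seen in replicate 3 and well exceeded it without that spread. The simulated spread was shuffled over rows with random sign, and rows varied independently. In the data, replicate 3 was shifted over the whole table and many rows had identical values. The simulation therefore cannot give the rate of false calls among the rows called in the data. All 5 listed members are named, with the 2 nearest other rows by distance. The members and lists were chosen with earlier results of these data known, and the range of 10 to 20 CPM for like rows was set after seeing the members' values. Figures used Matplotlib 3.10.9.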

Additional observations from a re-analysis of the deposited data

How the results depend on the processing

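The log2 change of the mean CYP1A1 row, 2.81 as reported, was 3.29 with a pseudocount of 0.25 and 1.88 with 4. Leaving out 1 library gave 2.53 to 3.13, and the 3 other scalings, the replicate block, rounding taken to its limits and identical rows counted once (an alternative chosen after seeing the data) moved it by less than the SD between replicates of 0.46. Over the single rows, 60 comparisons with other settings gave changes of 1.51 to 3.46, all positive, and the 8 that moved by more than that row's SD were all under another pseudocount. The difference between UT-143 replicates 1 and 2, -0.46 for the mean row, was -0.40 to -0.47 under other pseudocounts and scalings, which were also chosen after seeing the data.

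For all rows, limma called 1188 (456 higher). Quantile normalization gave 3408 (1399 higher), trimmed mean scaling 699 higher and median-of-ratios scaling 696 higher; the cause was not tested. Leaving out 1 library gave 0 to 8206 changed rows and 0 to 3048 higher, with the highest counts without UT-143 replicate 3. The rate of false calls in those highest counts is unknown, as false calls in the simulation exceeded the threshold without added spread. With the replicate block, 0 rows passed. The shared numbers do not pair the samples by the labels, and across rows the deviations from the group means gave correlations of -0.41, 0.52 and 0.039 within numbers 1, 2 and 3. For some libraries the best match had another number. A minimum mean of 20 CPM removed all CYP1A1 rows. Rounding to whole numbers and the unknown depth limit the precision of the vehicle values.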
